A study of Rattus norvegicus with 12 samples.

Results

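Preadipocytes from the perirenal and the epididymal fat depots of old rats were compared on 6 expression arrays, 3 for each depot, out of 12 arrays in all. The arrays are those whose labels give an old animal, with no choice by measured values. The animals were male Brown Norway rats, barrier reared and specific pathogen free, aged 30 months, and each of the 3 rats gave 1 array for each depot. The other 6 arrays came from the same depots of 3 rats aged 3 months and entered the filter on low signals, the estimate of the spread and the test of whether the depot difference changed with age. Fat was digested with collagenase, and the pelleted cells were plated for 20 hours, trypsinised, replated and grown to confluence in medium with serum before RNA was taken. The labels name no genetic change, drug or differentiation step for any group. The values therefore describe cultured stromal cells after 1 replating and not the depots themselves, and the SEs pool the spread of the rats of both ages in 1 fit.

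Preadipocytes are fibroblast-like precursors in the stroma of fat. Under insulin, glucocorticoid and cyclic AMP signals they turn on C/EBP factors and then PPARG, and fill with lipid. Perirenal fat lies behind the peritoneum around the kidney, while epididymal fat is attached to the epididymis and testis and is covered by mesothelium. Precursors from different depots are known to keep different patterns of developmental transcription factors in culture, and ageing is known to lower their capacity to differentiate.

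The 2 depots differed in RNA completeness on these arrays. Every depot result below comes from arrays with that difference, also where the ratio is not repeated. The beta-actin 3′/5′ ratio compares array probes at both ends of the actin transcript and rises when labelled RNA lacks its 5′ part. It was 1.06, 0.902 and 0.944 on the perirenal arrays of rats 1, 2 and 3, and 7.0, 55.0 and 13.9 on the epididymal arrays. The Gapdh ratio was 1.11 to 1.17 against 1.85 to 6.94. Spiked-in bacterial transcripts, which are not RNA of the cells, split by depot as well. The dap transcript read 4.5 to 8.3 against 644 to 930.2, and thr 4.6 to 12.6 against 153.7 to 251.2. The phe transcript read 15 to 27.1 against 137 to 196.3, and lys 7 to 20.6 against 110 to 319.6. Perirenal arrays had median signals of 194 to 198, and epididymal arrays 153 to 163. The brightest probe set read 18297 to 19898 and 30670 to 44159. The young arrays split by depot in the same way, with actin ratios of 0.947 to 1.11 and 5.25 to 38.2. In these arrays depot cannot be told apart from RNA completeness or from how the samples were prepared and labelled. The part of RNA completeness and of sample handling in the depot results was not tested.

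**Figure D1:**
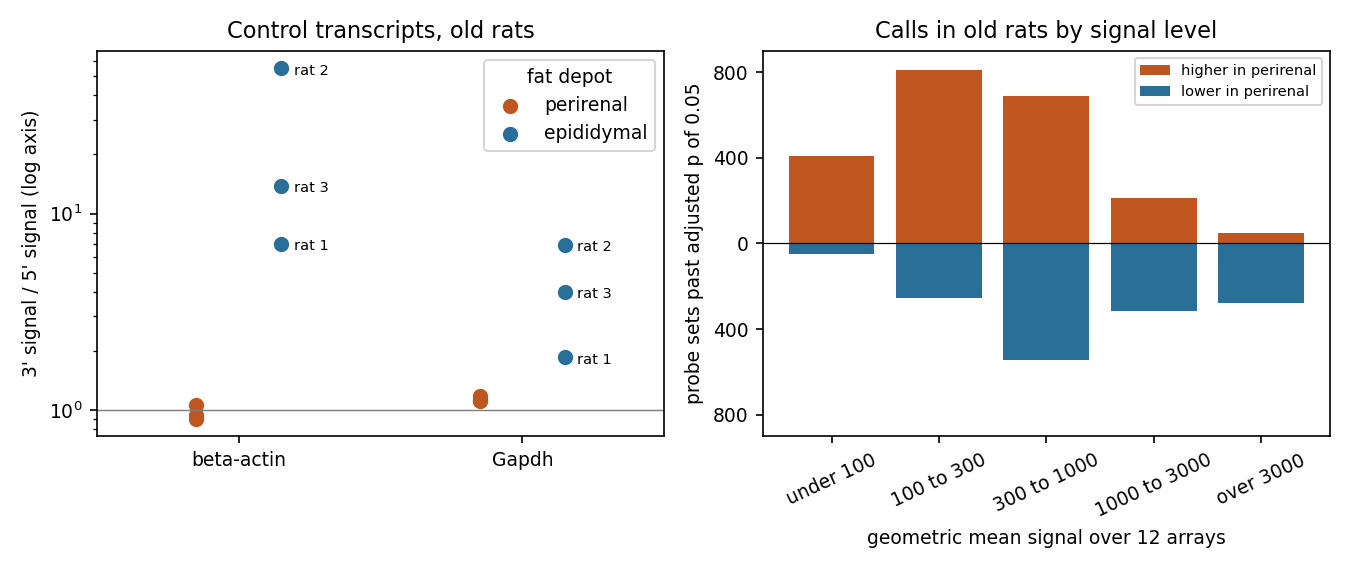
Array controls and calls by signal level in old rats. The left panel plots the 3′/5′ signal ratio of beta-actin and Gapdh (log axis), 1 point for each array, with the actin ratio at 7.0 to 55.0 on the 3 epididymal arrays and near 1 on the 3 perirenal arrays. The right panel plots the number of probe sets called higher (up) and lower (down) in perirenal cells for 5 classes of mean signal, from 410 and 51 in the dimmest class to 48 and 277 in the brightest.

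The cultures carried stromal markers in both depots. In bulk RNA, fewer cells of a type and less RNA per cell cannot be told apart. The platelet-derived growth factor receptor Pdgfra, which marks adipocyte precursors, had geometric mean signals of 4270.3 in perirenal and 5114 in epididymal cultures of old rats. Its log2 difference was -0.26 ± 0.19 with an adjusted p of 0.314. The intermediate filament gene Vim and the collagen gene Col3a1 were bright on all 6 arrays. Signals of the adipocyte genes Lep, Plin1 and Lipe, the leukocyte genes Ptprc and Itgam, the endothelial genes Pecam1, Kdr, Vwf and Cldn5, and the epithelial gene Epcam fell below the filter on low signals. Other members of these lists passed it, among them the adipocyte gene Fabp4 and the leukocyte genes Cd53, Csf1r, Cd68 and Tyrobp, and 16 leukocyte markers were tested in all. The filter took the mean over all 12 arrays, at a level of 56.3. On the old perirenal arrays alone, Plin1, Kdr and Cldn5 lay above that level, with geometric means of 60.0, 58.5 and 67.7. Their old epididymal means were 12.6, 37.5 and 35.3. Pparg and Cebpb, which drive differentiation, did not pass the test. Pparg read 172, 149.7 and 294 against 154, 191 and 109.5, and Cebpb read 2440.4, 2451 and 2249 against 2691, 2386 and 2854, with adjusted p-values of 0.374 and 0.38. Cebpa, Tnf and Dlk1, an inhibitor of differentiation that marks preadipocytes, lay below the filter. A Tnf probe set nevertheless read 76, 60.9 and 62.2 in perirenal and 8.5, 9.6 and 5.1 in epididymal cells. Another read 36.1, 45.6 and 40.9 against 40.5, 5.6 and 33.2, with overlap.

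Across the 11106 probe sets tested, 3612 (32.5%) differed between the depots at an adjusted p of 0.05 or less, 2169 (19.5%) higher and 1443 (13.0%) lower in perirenal cells. Throughout, a signal is a MAS5 intensity in arbitrary units, values are listed for rats 1, 2 and 3, and a difference is log2 perirenal minus log2 epididymal ± its SE from the fit to all 12 arrays (n = 3 old rats, 1 pair of arrays each) with limma's Benjamini-Hochberg adjusted p. The difference had the same sign in all 3 rats for 2163 of the 2169 and 1437 of the 1443. With 1 probe set for each of 8002 genes, 2426 (30.3%) were called, of which 1320 (16.5% of all genes) were higher and 1106 (13.8%) lower, and these shares are the background for the gene lists. Several lists called in both directions lay near the 30.3%. They included the Wnt (34.5%), inflammatory (34.3%), complement (33.3%), oxidative stress (32.7%), insulin-like growth factor (27.8%) and cell cycle arrest (26.9%) lists. The 3 perirenal and 3 epididymal arrays did not overlap for 5248 probe sets (47.3%). The split moved with the scaling: 60.0% of calls were higher in perirenal cells as deposited, 48.9% after quantile normalization and 46.5% after centring each array on its median. Leaving out rat 1, 2 or 3 left 2265, 1961 and 2367 calls.

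The direction of a call followed the brightness of the probe set. Below a mean signal of 100, 410 probe sets were higher and 51 lower in perirenal cells. Above 3000, 48 were higher and 277 lower. The median difference went from 0.67 to -0.24 across these classes, and from 0.087 to 0.00089 after quantile normalization. For 1139 genes more than 1 probe set was tested. All of a gene's probe sets were called higher for 72 of these genes and lower for 26, and for 118 genes they were called in both directions. Over 1344 pairs of the brightest and another probe set of the same gene, the differences had a Pearson correlation of 0.11, given as a description. The brightest probe sets were called higher for 194 and lower for 213 of these genes (median difference -0.035), while the others had 543 higher and 110 lower (median 0.51). A gene's single value below comes from its brightest probe set, as do the counts and medians of the gene lists, and for named genes the others are given where they exist.

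**Figure D2:**
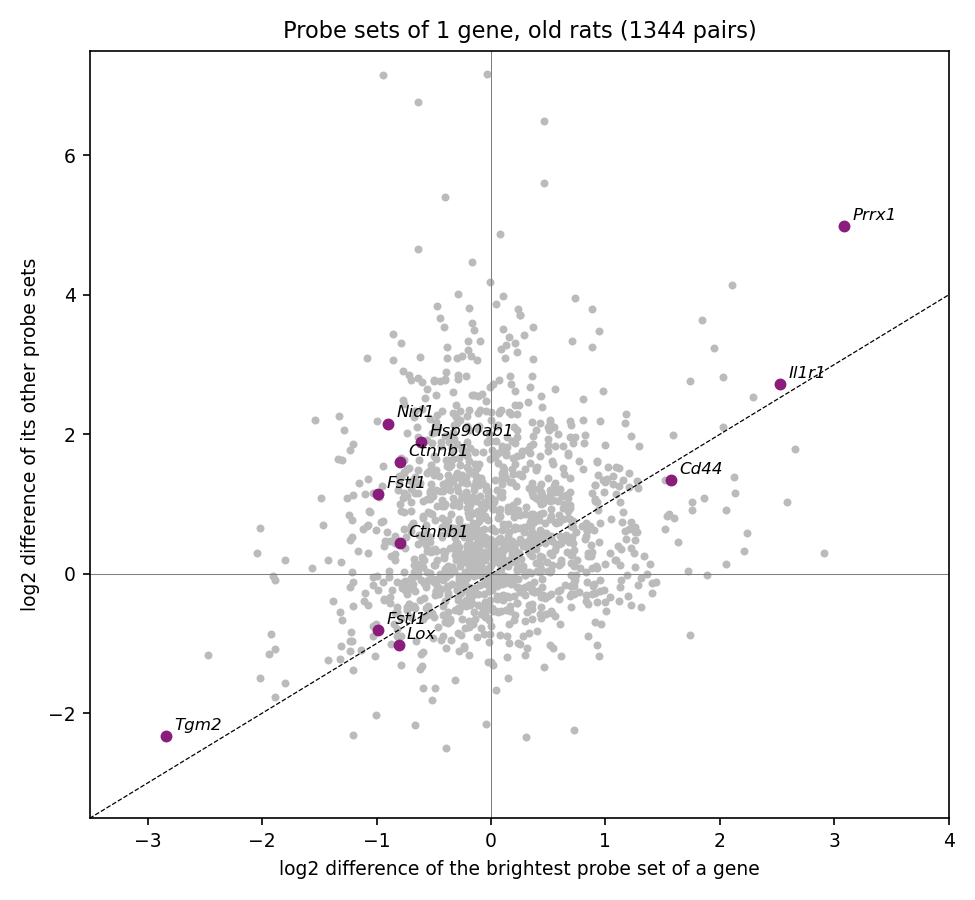
Depot differences of 2 probe sets of the same gene in old rats. Each of 1344 points sets the log2 difference of the gene's brightest probe set (x axis) against that of another probe set (y axis), and the named genes include Tgm2, which lies at -2.84 and -2.33, and Nid1, which lies at -0.90 and 2.15.

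Among genes whose epididymal mean stayed above the filter level, a signal of 56.3, and whose arrays did not overlap, Ntrk2 had the largest rise in perirenal cells. Ntrk2, the receptor for the neurotrophin BDNF, read 1062, 1284 and 1013 in perirenal and 81.8, 46 and 118 in epididymal cells. The groups lay far apart, a 14.6-fold difference (3.87 ± 0.43, adjusted p = 0.000305). The chemokine Cxcl6 (3.44) came next, and its values stand with the inflammatory genes. Fgf7, a growth factor that stromal cells make for epithelia, read 1324, 1749 and 1405 against 227, 107 and 132 (3.33 ± 0.39, adjusted p = 0.000396). Prrx1, a homeobox factor of limb and body wall mesenchyme, read 1399, 1446 and 675 against 192, 94.6 and 123 (3.08 ± 0.28, adjusted p = 0.000142). No array of either gene overlapped with the other depot, and the other Prrx1 probe set gave 4.98. The neuronal proteins gamma-synuclein (Sncg, 2.50) and stathmin 2 (Stmn2, 2.29 and 2.54 by 2 probe sets), the adiponectin receptor Adipor2 (2.40) and the nuclear protein gene Akirin2 (2.85) were also among the 14 largest rises whose epididymal signal stayed above the filter. All of these passed the test also after quantile normalization.

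Mfap4 had the largest fall among genes whose means stayed above the filter level in both depots and whose arrays did not overlap. Olr1, which codes for a scavenger receptor (-4.15), and Smoc1 (-3.75) had larger differences, with perirenal means below that level. Mfap4, a microfibril-associated glycoprotein, read 348, 221 and 298 in perirenal and 3279, 2139 and 2659 in epididymal cells. The gap was 9.35-fold in favour of epididymal cells (-3.22 ± 0.18, adjusted p = 3e-05), and every epididymal array was above every perirenal array. Tgm2, an enzyme that cross-links matrix proteins, read 394, 197 and 469 against 2874, 2086 and 2214 (-2.84 ± 0.27), and its other probe set gave -2.33. The LIM domain proteins Lmcd1 (-2.88) and Pdlim3 (-2.35), the basement membrane protein Tinagl1 (-2.13), the homeobox gene Pknox2 (-2.19) and the apoptosis gene Pawr (-2.13) were also among the 14 largest falls. The actin ratio separated the same arrays.

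**Figure D3:**
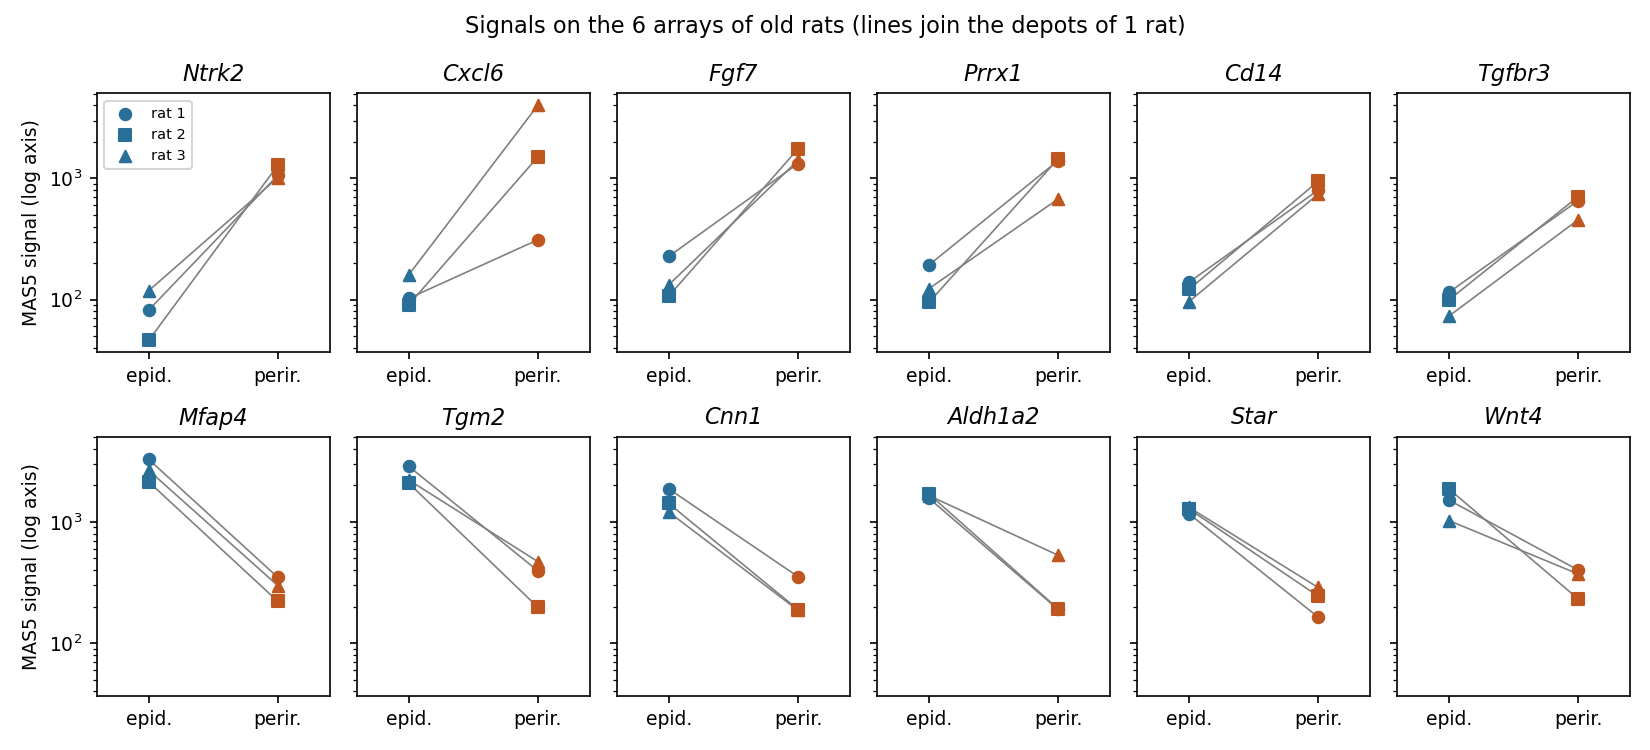
Signals of genes that differed between the depots, in old rats. Each panel gives the MAS5 signal (log axis) of 1 gene on the 3 perirenal and 3 epididymal arrays, with a line joining the 2 depots of a rat; Mfap4, for example, reads 348, 221 and 298 in perirenal and 3279, 2139 and 2659 in epididymal cells of rats 1, 2 and 3.

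Smooth muscle and contractile genes were mostly lower in perirenal cells. Of 30 genes tested, 22 fell and 3 rose, with a median difference of -0.98 against 0.049 over all genes. Cnn1, the actin-binding protein calponin, read 353, 189 and 186 in perirenal and 1871, 1418 and 1204 in epididymal cells (-2.67 ± 0.26, adjusted p = 0.000162). Tropomyosin 2 (Tpm2) read 4497, 3012 and 3201 against 14409, 16987 and 14258, a 4.32-fold difference (-2.11 ± 0.14, adjusted p = 3.55e-05). Neither gene had overlapping arrays. Smooth muscle actin Acta2, the defining gene of myofibroblasts, read 4202, 4109 and 2334 against 9284, 9168 and 7120.1 (-1.30 ± 0.12, adjusted p = 0.000142). The myosin heavy chain Myh11 (-2.50), the myosin light chain Myl9 (-1.69), the actin cross-linkers Actn1 (-1.03 and -0.75) and Flna (-1.0), transgelin (Tagln, -1.18) and desmin (Des, -1.20) fell too. After quantile normalization 20 members were lower and 3 higher, and without rat 1, 2 or 3 the lower count was 20, 20 and 21. Of the 8 members with several probe sets, 1 was called lower by all of them and 2 were called in both directions. Summed over the 30 members, the signal was 79729, 72086 and 67229.9 in perirenal cells and 146466, 159006 and 136132 in epididymal cells, whose actin ratios were 0.902 to 1.06 and 7.0 to 55.0. This sum is of signals as deposited and is weighted to the brightest members. Of all probe sets with mean signals over 3000, 48 were called higher and 277 lower.

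Elastic fibre and cross-linking genes were also mostly lower, with 13 of 18 members below, 1 above and a median of -0.77. Apart from Mfap4 and Tgm2, they included the lysyl oxidases, which cross-link collagen and elastin. Lox fell by both probe sets (-0.81 and -1.02), and Loxl1 by its only one (-1.21 ± 0.14, adjusted p = 0.000388). Fibrillin 1 (Fbn1), the backbone of microfibrils, read 2258, 3160.1 and 3687 against 5387, 7101 and 6426 (-1.07 ± 0.14, adjusted p = 0.000704), while its dimmer probe set gave 0.30 (adjusted p = 0.219). Mfap5 fell by 0.73. The count after quantile normalization was 12, and without rat 1, 2 or 3 it was 8, 9 and 9.

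Collagen genes fell on the deposited scale by an amount that depended on the scaling. Of 25 fibrillar collagen and collagen processing genes, 16 were lower and 2 higher (median -0.56); after quantile normalization 9 were lower and the median was -0.32. Col1a1, a chain of type I collagen, read 18631, 18298 and 16719 in perirenal and 28463, 34429 and 34119 in epididymal cells. The groups did not overlap (-0.85 ± 0.12, adjusted p = 0.000724), but the difference was -0.092 after quantile normalization (adjusted p = 0.548). The other Col1a1 probe set gave -0.71 as deposited. Col3a1 went from -0.84 to -0.21 (adjusted p = 0.145), and Sparc, a collagen-binding protein, from -0.62 to -0.044 (adjusted p = 0.769). Col1a2, the other chain of type I collagen, stayed called, at -1.13 as deposited and -0.41 after quantile normalization, and its second probe set gave -1.09. Col6a3 (-0.95), the prolyl hydroxylase P3h3 (-0.95) and the procollagen proteinase enhancer Pcolce (-0.78) kept their calls as well. Of 11 members with several probe sets, 3 were lower by all and 2 were called both ways. The actin ratio of these arrays was 0.902 to 1.06 in perirenal and 7.0 to 55.0 in epididymal cells.

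Basement membrane genes had 11 of 15 members lower and 1 higher, with a median of -0.62, and 7 lower after quantile normalization. Of 5 members with several probe sets, 1 was lower by all, 1 was higher by all and 2 were called both ways. Lamb1, a laminin chain, read 2787, 2553 and 3263 against 7384, 5743 and 8632 (-1.33 ± 0.12, adjusted p = 0.00013), with no overlap. The type IV collagen chains Col4a1 (-1.08 and -0.45), Col4a2 (-1.30) and Col4a5 (-1.76) fell. Nidogen 1 (Nid1), which links laminin to type IV collagen, was called in opposite directions by its 2 probe sets. The brighter read 4175, 4414 and 3707 against 6725, 8696 and 7609 (-0.90), and the dimmer read 946, 1191 and 967 against 201, 300.3 and 205 (2.15).

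Matricellular proteins and proteoglycans went both ways, 5 of 25 higher and 9 lower; without rat 1, 2 or 3 these counts were 3 and 6, 2 and 6, and 4 and 7, without the rat as a block 3 and 7, and after quantile normalization 5 and 4. Osteopontin (Spp1), a secreted glycoprotein that binds integrins and Cd44, read 2516, 8306 and 2329.6 in perirenal and 484, 1974 and 575 in epididymal cells. Rat 2 was the highest in both depots, and within each rat perirenal cells were higher (2.16 ± 0.13, adjusted p = 3e-05). The hyaluronan and osteopontin receptor Cd44 was higher by both probe sets (1.58 and 1.35). Tenascin C (Tnc), a matrix protein of wounds, read 4769.8, 7139 and 5509 against 15760.0, 19619 and 19240.0, with no overlap (-1.66 ± 0.11, adjusted p = 3.55e-05). The proteoglycan biglycan (Bgn) fell by 1.14, and fibronectin (Fn1) had -0.65, which was -0.18 after quantile normalization (adjusted p = 0.221).

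Proteases of the plasminogen system moved in opposite directions. Plau, the urokinase-type activator, read 881, 885 and 799 in perirenal and 206, 265 and 247 in epididymal cells (1.85 ± 0.32, adjusted p = 0.00232), and its dimmer probe set gave 3.64. Plat, the tissue-type activator, read 560.3, 406 and 519.6 against 1789.8, 1327 and 1353 (-1.59 ± 0.15, adjusted p = 0.000142). Arrays of the 2 depots did not overlap for either activator. Serpine2, which inhibits both, was 1.83 (adjusted p = 0.00818, and 0.064 without rat 1). The serine protease Fap (1.08) and the macrophage elastase gene Mmp12 rose. Mmp12 read 296, 1342 and 497 against 124, 138 and 70.9 (2.45 ± 0.38), and without rat 1 its difference was 3.05. The inhibitor Timp1 had -0.66, and -0.16 after quantile normalization (adjusted p = 0.418). In all, 7 of 23 proteases and inhibitors were higher and 5 lower, and without rat 1, 2 or 3 the counts were 4 and 2, 4 and 3, and 5 and 3. After quantile normalization they were 7 and 2.

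Developmental transcription and patterning genes had 11 of 28 members higher and 5 lower in perirenal cells (median 0.53). Besides Prrx1, the abdominal homeobox gene Hoxa10 read 541, 531 and 488 against 52.6, 49.1 and 51.3 (3.35 ± 0.56, adjusted p = 0.00199). Hand2, a factor of heart and limb development, read 122, 198 and 117 against 32, 50.2 and 27 (2.01 ± 0.38). The epididymal means of both genes lay below the filter level of 56.3, so their folds rest on dim signals, on arrays with actin ratios of 7.0 to 55.0 against 0.902 to 1.06. Wt1, which marks mesothelium and visceral fat precursors, read 283, 323 and 432 against 1034, 1037 and 774 (-1.46 ± 0.22, adjusted p = 0.00121), with 0.69 by a second probe set (adjusted p = 0.125). The nuclear receptor gene Nr2f2 was called both ways (-1.49 by the brighter and 1.09 by the dimmer probe set). Sfrp2, a secreted modulator of Wnt signals, read 1244, 1391 and 5409 against 605, 520.4 and 973 (1.64 ± 0.27, adjusted p = 0.00183); without the rat as a block its adjusted p was 0.0631. Quantile normalization gave 8 higher and 7 lower members, and leaving out rat 1, 2 or 3 gave 7 and 4, 8 and 3, and 8 and 5. The direction turned with the lowest 50% of probe sets left out, which kept 14 members, 3 higher and 6 lower with a median of -0.30.

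Growth factor ligands and receptors had 11 of 38 members higher and 6 lower, and without rat 1, 2 or 3 the counts were 9 and 3, 9 and 3, and 9 and 7, with 10 and 10 on centred arrays. Besides Fgf7 and Ntrk2, stem cell factor (Kitlg) read 338, 424 and 335 against 73.1, 137 and 83.3 (1.95 ± 0.20, adjusted p = 0.000206) and was 3.24 by its other probe set. The lymphatic growth factor Vegfd read 759, 1226 and 2382 against 249, 243 and 162 (2.61 ± 0.36), and 1.97 without rat 3, which had the highest perirenal value. Neither gene had overlapping arrays, and neither did the actin ratio (0.902 to 1.06 against 7.0 to 55.0). The related ligand Vegfb was 1.23. Pleiotrophin (Ptn), a heparin-binding growth factor, went the other way with 66.7, 99.6 and 74.2 against 276, 530.1 and 509.6 (-2.41 ± 0.29, adjusted p = 0.000422).

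Insulin-like growth factor genes were called in both directions, with 2 of 18 higher and 3 lower; leaving out rat 1, 2 or 3 gave 3 and 1, 1 and 2, and 2 and 3. The median was 0.095 as deposited, -0.16 after quantile normalization and -0.046 without rat 2. Igf1, which promotes growth and differentiation of preadipocytes, read 1826, 2065 and 4034 against 6867, 5725 and 6009. Its difference was -1.32 ± 0.29 (adjusted p = 0.00715, 0.0582 without rat 1 and 0.0509 without rat 2), and the second probe set gave -1.22.

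TGF-beta and BMP genes were called in both directions, 8 of 48 higher and 13 lower, against 6 and 8, 5 and 7, and 7 and 10 without rat 1, 2 or 3. Of the ligands, Bmp6 read 450.3, 287 and 584 against 1549, 1360.3 and 2020.4 (-1.94 ± 0.17, adjusted p = 0.000133) and -1.15 by its other probe set. Of the receptors, Tgfbr3 (betaglycan), which presents TGF-beta to its signalling receptors, read 653, 706 and 455 against 115, 99.3 and 73 (2.66 ± 0.22, adjusted p = 0.000108) and 1.79 by the other. The 2 genes stood on opposite sides with no overlap of arrays, while the co-receptor endoglin (Eng) was -1.04. Of the intracellular members, the inhibitor Smad6 was 2.04 and the effector Smad3 -0.87. Ccn2, a TGF-beta target that codes for connective tissue growth factor, read 5814, 4178 and 4268 against 15725, 12620.0 and 15040.0 (-1.62 ± 0.18, adjusted p = 0.000356). The follistatin-like gene Fstl1 was called both ways by 3 probe sets (-0.98, -0.81 and 1.14).

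Wnt pathway genes had 5 of 29 higher and 5 lower. Among the ligands, Wnt4 read 401, 231 and 371 in perirenal and 1513, 1869 and 1025 in epididymal cells (-2.13 ± 0.25, adjusted p = 0.000411), and Wnt2b read 307, 372 and 286 against 119.6, 136 and 159 (1.22 ± 0.20, adjusted p = 0.00193). The ligands thus lay on opposite sides, each without overlap. The co-receptor Lrp6 was 2.02 and the kinase Gsk3b 0.89; without rat 2, Lrp6 was 1.42. Beta-catenin (Ctnnb1) was called lower by its brightest probe set (-0.79) and higher by 2 others (0.44 and 1.60).

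**Figure D4:**
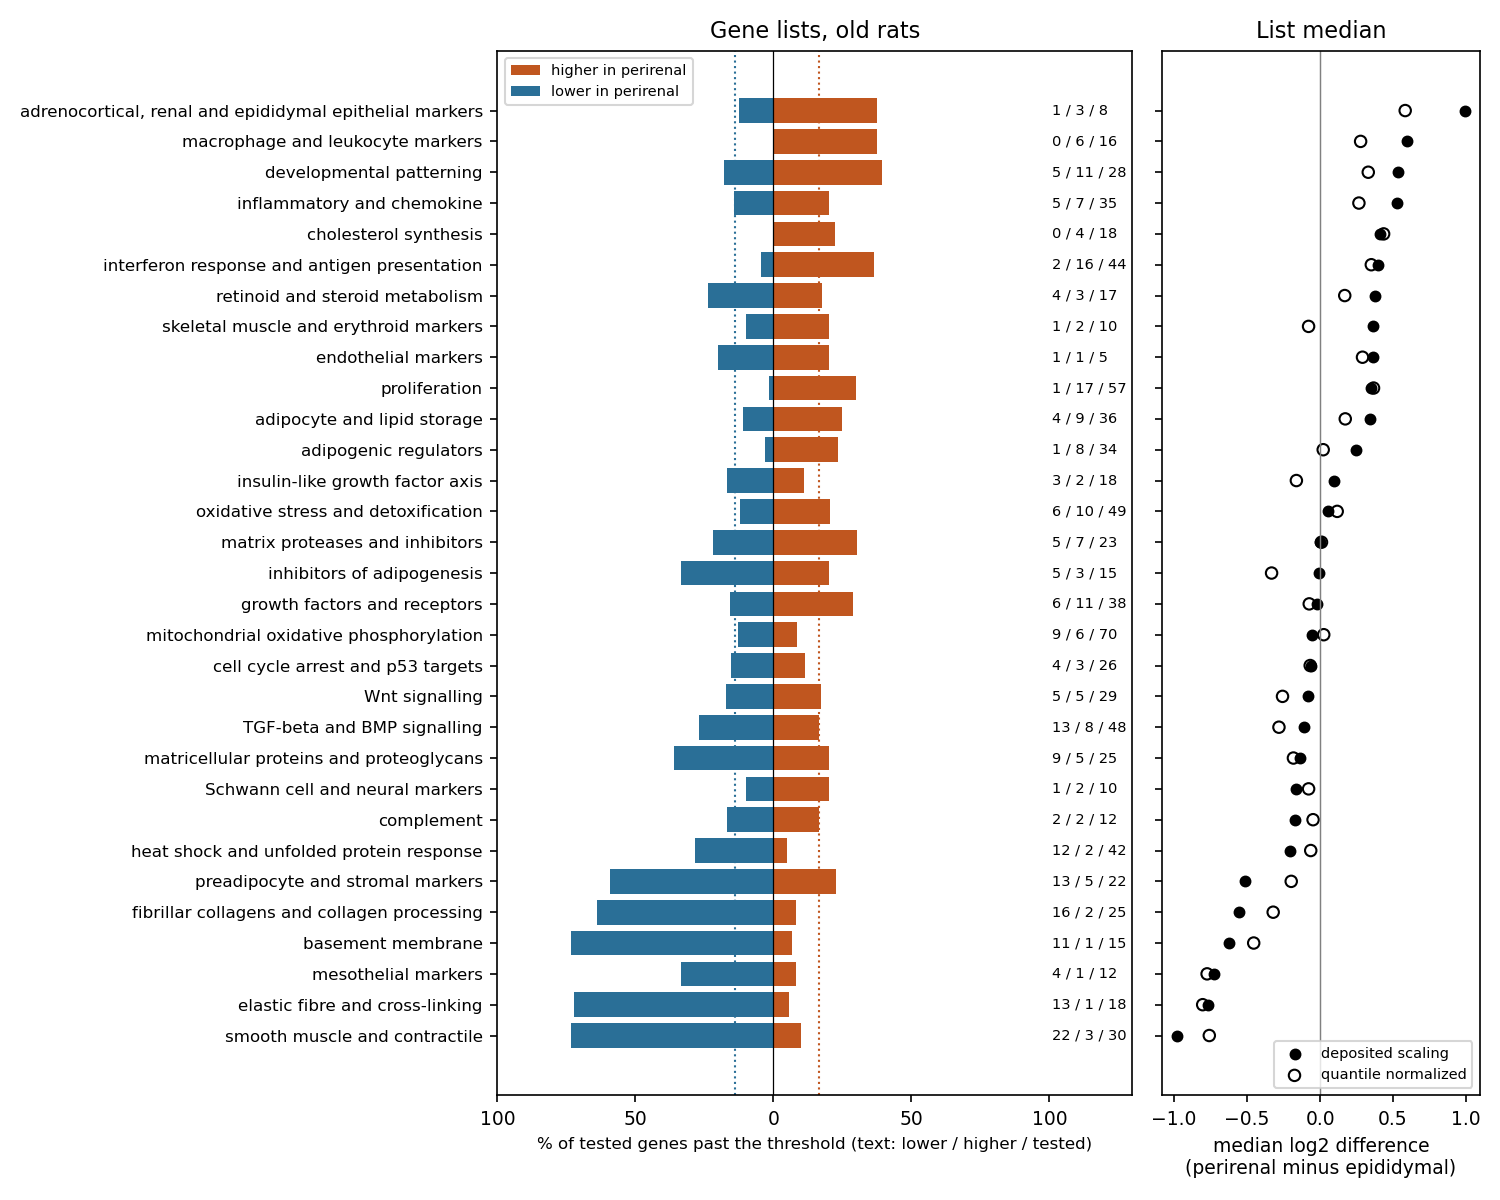
Depot differences by gene list in old rats. The left panel plots, for each list, the percentage of tested genes called lower (left) and higher (right) in perirenal cells, with the counts lower, higher and tested in text and dotted lines at the shares over all genes (13.8% and 16.5%). The right panel plots the median log2 difference as deposited (filled) and after quantile normalization (open); contractile genes, at the bottom, lie at -0.98 and -0.76.

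Retinoid and steroid genes had 3 of 17 members higher and 4 lower, 41.2% called either way against 30.3% of all genes. The counts were 2 and 2, 2 and 3, and 3 and 4 without rat 1, 2 or 3. Aldh1a2, which makes retinoic acid, read 189.7, 192 and 531 in perirenal and 1569.8, 1700.3 and 1649 in epididymal cells. The epididymal values lay within a narrow band above all perirenal values (-2.61 ± 0.33, adjusted p = 0.000552). Star, which moves cholesterol into mitochondria for steroid synthesis, read 164, 244 and 287 against 1168, 1279 and 1321 (-2.47 ± 0.22, adjusted p = 0.00013) and -1.16 by its other probe set. Hsd11b1, which regenerates active glucocorticoid, read 4129.6, 4369.9 and 3745 against 1584, 2047 and 1796 (1.18 ± 0.13, adjusted p = 0.000314). Chemerin (Rarres2), a retinoid-responsive adipokine, read 10720.0, 7957 and 8114 against 5892, 4763 and 4099 (0.86 ± 0.12, adjusted p = 0.000877).

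Inflammatory genes were called in both directions, 7 of 35 higher and 5 lower, with 7 and 3 after quantile normalization and 6 and 3 without the rat as a block. Cd14, the co-receptor for bacterial lipopolysaccharide, read 799, 943 and 739 in perirenal and 139, 121 and 95.9 in epididymal cells, with no overlap (2.81 ± 0.19, adjusted p = 3.55e-05). The chemokine Cxcl6 read 311, 1506 and 4009.5 against 102, 90.5 and 160.0. Its perirenal values spread widely between rats, and the difference of 3.44 ± 0.54 became 4.35 without rat 1 and 2.83 without rat 3. The interleukin 1 receptor Il1r1 was higher by 2 probe sets (2.52 and 2.71), as were the cytokine signalling inhibitor Socs3 (2.77) and the macrophage growth factor Csf1 (1.48). Il6 read 1730.2, 1662 and 3572 against 2187, 951 and 3086, and these overlapped (adjusted p = 0.694). The adhesion molecule Icam1 was -1.54. Complement C3 read 409, 269 and 1028 against 1726, 1266 and 2764 (-1.91 ± 0.17, adjusted p = 0.000133), while Cd55, which shields cells from complement, was 0.93 and 1.61; 2 of 12 complement genes were higher and 2 lower, and without rat 1, 2 or 3 these were 2 and 1, 2 and 2, and 1 and 2, with 1 and 1 after quantile normalization.

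Interferon response and antigen presentation genes had 16 of 44 members higher and 2 lower, with a median of 0.40. After quantile normalization 11 were higher and 3 lower, and without rat 1, 2 or 3 the higher count was 11, 6 and 6. The class II genes RT1-Da (1.93) and RT1-Db1 (2.02, adjusted p = 0.0713 without rat 2), their regulator Ciita (2.06, and 1.47 without rat 3) and Ifit1 (1.93) had epididymal means below the filter level. Irf7, a master transcription factor of the interferon response, read 376, 324 and 529 in perirenal and 269, 228 and 191 in epididymal cells (0.82 ± 0.23, adjusted p = 0.0228, and 0.0542 after quantile normalization). Bst2, which tethers viruses to the cell surface, read 290.2, 262 and 466 against 218, 174 and 197 (0.75 ± 0.22, adjusted p = 0.0246, and 0.077 after quantile normalization). RT1-S3, a class I gene, read 315, 322 and 252 against 160.3, 197 and 82.6 (1.10 ± 0.22), with 1.14, 1.53 and 0.20 by further probe sets. Arrays of the 2 depots did not overlap for these 3 genes. RT1 genes form a family of near copies, so probes may not separate them. Their arrays had actin ratios of 0.902 to 1.06 (perirenal) and 7.0 to 55.0 (epididymal).

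Interferon-responsive promoters carry a repeat that IRF and STAT factors bind, written here as GAAANNGAAA and searched on both strands of RefSeq windows (build GRCr8) from 250 bases before to 50 after each gene start. The motif was in 1034 of 27457 windows (3.77%) and in 21 of the 38 tested members that had a window (55.3%). Among members called higher it was in 3 of 11, and among those that did not pass in 18 of 26. The 3 higher members with the motif, Bst2, Irf7 and RT1-S3, are shown by the 250 bases before their start, 5′ to 3′ on the gene's strand, with the motif or its reverse complement in capitals; Bst2 and Irf7 were picked for it after their values were seen. They lie at chr16:18254968-18255217 (minus strand), chr1:205800024-205800273 (minus strand) and chr20:2675278-2675527 (plus strand).
Bst2: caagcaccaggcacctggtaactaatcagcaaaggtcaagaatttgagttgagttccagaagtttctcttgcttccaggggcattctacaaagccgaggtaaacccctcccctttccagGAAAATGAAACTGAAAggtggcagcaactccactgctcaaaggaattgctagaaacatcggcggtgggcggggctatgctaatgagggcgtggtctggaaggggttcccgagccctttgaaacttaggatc
Irf7: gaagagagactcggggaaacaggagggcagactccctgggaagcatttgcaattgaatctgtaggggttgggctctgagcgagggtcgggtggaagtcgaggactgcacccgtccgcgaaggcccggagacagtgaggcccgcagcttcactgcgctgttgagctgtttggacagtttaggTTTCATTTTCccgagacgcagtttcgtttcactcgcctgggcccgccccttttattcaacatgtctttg
RT1-S3: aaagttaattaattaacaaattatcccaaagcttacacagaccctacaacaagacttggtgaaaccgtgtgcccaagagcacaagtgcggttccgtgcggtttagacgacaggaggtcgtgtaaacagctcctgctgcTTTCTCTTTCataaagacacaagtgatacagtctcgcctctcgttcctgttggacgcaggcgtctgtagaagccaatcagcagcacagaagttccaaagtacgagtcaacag
The window of Bst2 holds 2 overlapping copies, which begin 131 and 125 bases before the start. Irf7 and RT1-S3 hold 1 copy each, at 69 and 112 bases before it. A match is a description of the letters in the window and not of a bound site.

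Regulators of adipogenesis had 8 of 34 members higher and 1 lower, and 6 and 5 after quantile normalization and 5 and 3 on centred arrays. In all, 26.5% were called either way, below the 30.3% of all genes. Without rat 1, 2 or 3 the higher count was 4, 5 and 4. The PPARG partner gene Rxra (2.68) and the insulin receptor gene Insr (2.54, and 1.45 without rat 2) had epididymal means below the filter level. The liver X receptor gene Nr1h2 read 841, 773 and 579.6 against 423, 441 and 379 (0.80 ± 0.16, adjusted p = 0.00478), with no overlap. Inhibitors of adipogenesis had 3 of 15 higher and 5 lower, and 2 and 6 after quantile normalization. The median went from -0.010 to -0.33 with that step. The 3 members with several probe sets were each called in both directions. Gata2, which holds cells in the preadipocyte state, read 128, 143 and 184 against 366, 459 and 356 (-1.38 ± 0.20, adjusted p = 0.00107), and Id3 read 6135, 6627 and 7561 against 4543, 4420.1 and 3889 (0.66 ± 0.13, adjusted p = 0.00414). These 2 inhibitors lay on opposite sides, between arrays with actin ratios of 0.902 to 1.06 and 7.0 to 55.0. Klf2 was called both ways by its 4 probe sets, which ranged from -1.23 to 1.77. Ddit3, a stress factor that blocks C/EBP proteins, read 262, 161 and 166 against 327, 231 and 251 with overlap (-0.48 ± 0.22, adjusted p = 0.125, and 0.0366 after quantile normalization).

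Adipocyte and lipid storage genes had 9 of 36 higher and 4 lower, and 5 and 3 without the rat as a block. In all, 36.1% were called either way, against 30.3% of all genes. The insulin-responsive glucose transporter Slc2a4 read 290.3, 251 and 231 in perirenal and 43.8, 58.3 and 77.8 in epididymal cells (2.14 ± 0.34, adjusted p = 0.00159), with 1.15 by its other probe set. The fatty acid activating enzyme Acsl4 read 1365, 1472 and 1087 against 1861, 2764 and 2398 (-0.83 ± 0.16, adjusted p = 0.00423). The fatty acid binding protein gene Fabp4 read 27.7, 246 and 355 against 24.4, 52.1 and 27.3, with overlap (2.04 ± 0.70). Its adjusted p was 0.0468, and it was 0.149 without the block, 0.173 without rat 2, 0.284 without rat 3 and 0.181 after quantile normalization. Of 18 cholesterol synthesis genes, 4 were higher and 0 lower, with 6 higher after quantile normalization and 2 without rat 2. That is 22.2% called either way, below the 30.3% of all genes. Lanosterol synthase (Lss) read 1891, 1740.3 and 1444 against 835, 785 and 883, with no overlap (1.01 ± 0.16, adjusted p = 0.00151), and 1.35 by its other probe set.

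Proliferation genes had 17 of 57 higher and 1 lower (median 0.35), and 8, 6 and 13 higher without rat 1, 2 or 3. In all, 31.6% were called either way, near the 30.3% of all genes. Thymidylate synthase (Tyms), which makes a DNA precursor, read 245, 367 and 363 against 103, 138 and 118 (1.43 ± 0.20, adjusted p = 0.000854), and the primase Prim1 was 1.24, beside actin ratios of 0.902 to 1.06 and 7.0 to 55.0. Cell cycle arrest and p53 target genes had 3 of 26 higher and 4 lower, and 1 and 2, 2 and 1, 1 and 1 without rat 1, 2 or 3, and 2 and 2 after quantile normalization. The inhibitors of cyclin-dependent kinases Cdkn1b (-1.24) and Cdkn2c (0.87) lay on opposite sides, and a second Cdkn1b probe set gave 0.84 (adjusted p = 0.255).

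Heat shock and unfolded protein response genes had 12 of 42 lower and 2 higher, and 10 lower without any 1 of the 3 rats. In all, 33.3% were called either way, near the 30.3% of all genes. After quantile normalization 13 were lower, and the median went from -0.21 to -0.064. Of the 10 members with several probe sets, 0 were called lower by all of them and 2 were called in both directions. The small chaperone Cryab read 3173, 6377 and 5793 against 10966, 19136 and 10448 (-1.41 ± 0.20, adjusted p = 0.000852), and Hspb1 was -1.14. Hsp90ab1 was called lower by the brighter probe set (-0.61) and higher by the dimmer (1.88). Oxidative stress and detoxification genes had 10 of 49 higher and 6 lower, and the lower count was 3, 4 and 4 without rat 1, 2 or 3, 3 without the block, 11 with arrays centred on the median and 2 after quantile normalization. The glutathione transferase Gstm2 read 1696, 1599 and 1225 against 642, 333 and 517 (1.64 ± 0.19, adjusted p = 0.000396), and the metallothionein Mt2A (1.38), the quinone reductase Nqo1 (1.32) and heme oxygenase 1 (Hmox1, 0.97) were higher. Respiratory chain genes had 6 of 70 higher and 9 lower, 21.4% called either way against 30.3% of all genes. The counts were 10 and 3 after quantile normalization and 3 and 13 with centred arrays. Without rat 1, 2 or 3 they were 4 and 4, 3 and 2, and 1 and 4. The median of the list was -0.056 and 0.025 as deposited and after quantile normalization.

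Markers of other cell types were set beside the 30.3% of all genes called. The share called either way was 41.7% for mesothelial, 37.5% for leukocyte and 40% for endothelial markers. It was 50% for the adrenal, renal and epididymal epithelial list, and 30% each for the Schwann cell and the skeletal muscle and erythroid lists. Each list had only 5 to 16 tested members. Mesothelial markers had 4 of 12 tested members lower and 1 higher, and the 17 members on the array summed to 4860.2 to 7614 for perirenal and 9066 to 11055 for epididymal cells. All sums here are of signals as deposited. Mesothelin (Msln) read 399, 394 and 449 against 963, 992 and 676 (-1.06 ± 0.18, adjusted p = 0.00212), and N-cadherin (Cdh2) was -1.21 and -2.31. The mesothelial marker Calb2 went the other way, with 79.5, 84.2 and 184.8 against 17.7, 4.6 and 4.4. Its mean lay below the filter, so it was not tested. Of the keratins, Krt7 read 377, 664 and 284 against 495, 1076 and 751 and Krt8 68.9, 117 and 88.5 against 80.4, 122 and 44.9, with overlap in both. Macrophage and leukocyte markers had 6 of 16 higher and 0 lower (3 higher without rat 3 and 3 after quantile normalization), and the 32 on the array summed to 3841 to 5426 for perirenal and 2117 to 2911 for epididymal cells. Most were dim: with the lowest 50% of probe sets left out, 3 members remained, 2 higher and 0 lower. Of all probe sets with mean signals under 100, 410 of 1639 were higher and 51 lower. At 100 to 300, 809 of 3232 were higher and 255 lower. Lysozyme (Lyz2) read 401, 1319 and 693 against 137, 484 and 167 (1.68 ± 0.23, adjusted p = 0.000724); rat 2 was highest in both depots. The defining genes Ptprc and Itgam were below the filter, and Cd68 read 105, 256 and 303 against 99.8, 151 and 158 (adjusted p = 0.234). The labels state that macrophage markers were alike in the cultures of both depots. Endothelial marker sums overlapped, at 1963 to 2183 and 2107 to 2564, with 1 of 5 tested members higher and 1 lower; without rat 2, without rat 3 or after quantile normalization 0 were higher. Of the Schwann cell list 2 of 10 were higher and 1 lower (0 lower without rat 2 and 2 without rat 3), led by S100b (1.89 ± 0.21, adjusted p = 0.000318), which fat cells also express. The adrenal, renal and epididymal epithelial list had 3 of 8 higher and 1 lower (2 higher without rat 2 or rat 3), led by the water channel Aqp1 (1.74 and 2.77). The adrenocortical gene Cyp11b1 was 1.05 (adjusted p = 0.0489) and lost its call in 10 of 14 alternative fits. Cyp11a1, below the filter and not tested, read 94.5, 83.1 and 124.8 against 21.6, 12.4 and 41.7. The renal genes Umod and Slc12a1 also lay below the filter, with overlap. The skeletal muscle and erythroid list had 2 of 10 higher and 1 lower, 0 and 2 after quantile normalization, and 0 and 1, 0 and 0, and 1 and 0 without rat 1, 2 or 3. The sums of these last 3 lists overlapped between the depots. The actin ratio, at 0.902 to 1.06 and 7.0 to 55.0, moved with the mesothelial and leukocyte sums, and the part of these cell types in other results was not tested.

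Thy1, a surface marker of stromal precursors, was higher in perirenal cells by 2 probe sets of unequal difference. The brighter read 5692, 4552 and 2967 against 2984, 2414 and 2434 (0.71 ± 0.20, adjusted p = 0.0239, 0.132 without rat 1, 0.132 without rat 2 and 0.0662 without the block). The dimmer read 5845, 5678 and 3507 against 788, 355 and 399.8 (3.34 ± 0.34, adjusted p = 0.000207). Over all stromal markers 5 of 22 were higher and 13 lower, and 7 and 6 after quantile normalization; without rat 2, 3 were higher. Decorin (Dcn), a collagen-binding proteoglycan, was -0.28 as deposited (adjusted p = 0.0412) and 0.26 after quantile normalization (adjusted p = 0.0425), so its direction rested on the scaling. Without rat 1, 2 or 3 its adjusted p was 0.108, 0.173 and 0.075.

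The depot difference of old rats was set beside that of young rats. Of the 3612 probe sets called in old rats, 2579 were called in the same direction in young rats and 0 in the opposite one, and 3541 had the same sign. In young rats 3927 probe sets were called (35.4%). The 2 ages share no array, but their epididymal arrays share the raised actin ratio. Their calls also come from the same fit, with the same filter and the same spread for each probe set. The shared calls are therefore not independent. The test of the difference between ages called 0 probe sets (0.0%) after adjustment, with a smallest adjusted p of 0.417, and 722 (6.5%) had an unadjusted limma p under 0.05. Its median SE was 0.28, against 0.20 for the depot difference in old rats.

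**Figure D5:**
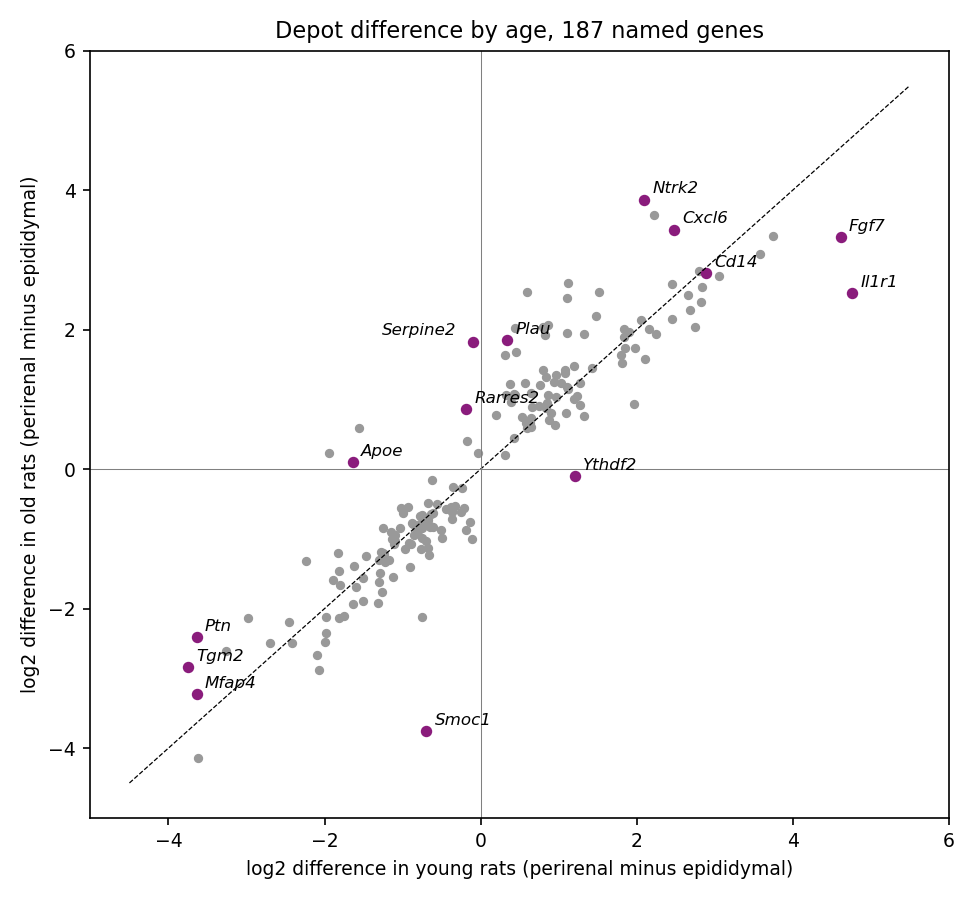
Depot difference in young rats (x axis) and in old rats (y axis), both as log2 perirenal minus epididymal, for 187 named genes, 1 point each. The dashed line marks equal differences; Mfap4 and Fgf7 lie far from 0 at both ages, while Rarres2 lies at -0.19 in young and 0.86 in old rats.

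The genes with the smallest unadjusted p for that difference are given as values, since none passed the adjustment. Rarres2 differed by 0.86 between depots in old rats and by -0.19 in young rats (unadjusted p = 0.000113). In young rats it read 5695, 8447 and 5229 in perirenal and 5694, 8786 and 7402 in epididymal cells, with overlap. Smoc1, a matricellular protein that binds calcium, read 79.4, 29 and 34.3 against 574, 660.2 and 509.5 in old rats and 117, 235 and 91.1 against 350.1, 172 and 178 in young rats, differences of -3.75 and -0.70 (unadjusted p = 0.000244). Its old perirenal mean lay below the filter level. Apoe, the apolipoprotein of lipid transport, read 2352, 1818 and 2539 against 2485, 2029 and 1745 in old rats and 574, 3138 and 1249.5 against 2804, 6088 and 3982 in young rats (0.10 and -1.64, unadjusted p = 0.000271). The RNA-binding protein gene Ythdf2 had -0.10 and 1.21 (unadjusted p = 0.000105), and a second probe set gave -0.018 and 0.38.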

How the data were processed

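The authors deposited one table of MAS5 signal intensities for 12 arrays; the values have a trimmed mean of 500.1 to 500.2 on each array, and MAS5 is named in the submitters' processing notes. MAS5 adjusts each probe set by its mismatch probes, which makes dim values noisy. Of 15923 probe sets, 57 array controls and the dimmest 30% (geometric mean over old and young arrays under 56.3) were left out, which left 11106. Of the 15866 that are no controls, 12783 carried 1 gene symbol in the platform annotation, 312 several and 2771 none. Log2 intensities (2 zeros set to 0.1) of all 12 arrays were fitted with limma 3.58.1 in R 4.3.3, with depot within age, the rat as a fixed block and an intensity trend (residual df 4, prior df 6.21). The labels tie both depots of a number to 1 animal; residuals of the paired arrays correlated at 0.20, 0.039 and 0.084 in old and 0.16, 0.12 and 0.040 in young rats. P-values were adjusted by Benjamini-Hochberg over all 11106, with a threshold of 0.05.

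Members and the 31 gene lists (972 of 1208 symbols matched) were chosen with earlier results of these data known. Each gene stands for its brightest probe set with 1 symbol. Named are the 14 largest changes in each direction with no overlap of arrays and both depots above the filter, up to 6 members of each list with the smallest p, fixed differentiation and cell type markers, the 4 smallest p for the age comparison, and other probe sets of these genes. Promoter windows were RefSeq's (GRCr8), and several motifs were searched, of which the interferon motif is described. Depth is not defined for arrays; their number limits the precision.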

Additional observations from a re-analysis of the deposited data

How the results depend on the processing

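The count of depot calls in old rats was 3612. Over the alternatives it was 3528 with no replicate block, 3923 with the rat as a random block, 3489 and 3313 from the 6 old arrays alone with and without the block, 3145 after quantile normalization, 3720 with centred arrays, 3939 with 32 added to each signal, 3907 of 15866 with no filter, 2633 of 7933 with the lowest 50% left out, 3146 without the trend and 3624 with robust estimation. Leaving out each old rat in turn gave 1961 to 2367, with fewer arrays to test. The median difference over all probe sets moved from 0.095 to -0.029 after quantile normalization and -0.023 after centring. Of the 3612 calls, 2634 were also called after quantile normalization, and 2207, 1898 and 2191 without rat 1, 2 or 3. Many named genes were chosen for large differences or small p, so their stability does not stand for that of all calls. Of 172 named genes called, 129 stayed called in each of the 13 or 14 alternatives that tested them. The call was lost for 36 without 1 rat, 21 after quantile normalization and 9 without the pairing. Dcn reversed, at 0.26 after quantile normalization; the cause was not tested. The age comparison had 0 calls in each alternative that gave one, with 537 to 965 unadjusted limma p-values under 0.05. Probe sets near background limit the rises: for 445 of the 2169 the epididymal mean lay below the filter level.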

Other observations

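For some genes both arrays of a rat deviated together. Over 6390 genes with a mean signal above 150, genes were ranked by the deviation from the depot mean that both arrays of a rat shared. The genes below were picked from these ranks after their values were seen, and no test was made of them or of any group they belong to.

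Chac1, a glutathione-degrading enzyme, had the highest rank for rat 1 and read 1642, 281 and 369 in perirenal and 1196, 162 and 233 in epididymal cells. Ddit4, an inhibitor of mTOR, read 908, 328 and 288 against 910.1, 168 and 369, and the amino acid transporter Slc7a5 read 753, 432 and 326 against 1922, 581 and 746. Rat 1 was the highest of the 3 in each depot for all 3 genes.

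The transcription factor genes Egr1 and Nr4a1 stood among the lowest ranks for rat 2. Egr1 read 4578, 1661 and 6200.3 in perirenal and 8051, 2051 and 3220.2 in epididymal cells, and Nr4a1 read 1749, 718 and 1390.3 against 1806, 505 and 772. For both genes rat 2 was the lowest in each depot.

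The stromelysin Mmp3 had the highest rank for rat 3 and read 132, 480.2 and 4187 in perirenal and 93, 221 and 521 in epididymal cells. The chemokine Cxcl1 read 572, 1876 and 6327 against 616, 842 and 1654, and the eotaxin Ccl11 read 216, 348 and 1300.0 against 510.4, 488 and 982. Rat 3 was the highest of the 3 in each depot for these genes.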
